A study of Mus musculus with 16 samples.

Results

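Bone marrow of wild-type (WT) and Nrf2 knockout (KO) mice was compared after both had received 5-fluorouracil (5-FU). The comparison used the 8 of 16 RNA sequencing libraries of the study that were given 5-FU, 4 from KO and 4 from WT mice, and covered every gene that passed a low-count filter, 17474 in all. The libraries fall into 4 groups of 2, WT 5-FU, WT BMX-001 and 5-FU, KO 5-FU, and KO BMX-001 and 5-FU, and treatment was a term of the fit. WT mice were C57BL/6 males of 8 to 10 weeks. KO mice were genotyped Nrf2-/- animals, labelled with the same strain (CB57BL/6 in the genotype label), bred from Nrf2+/- mice and expressing a mutant, inactive form of Nrf2. Their own age and sex are not stated in the labels. All 8 libraries come from mice given 5-FU at 20 mg/kg on day 0 and again on day 7, with marrow taken on day 10. In the BMX-001 groups, 0.5 mg/kg was given 24 h before the first 5-FU dose and every 3 days afterwards. The labels give marrow isolation in duplicate, and whether 2 libraries of a group come from separate animals is not stated, so the p-values measure the spread between these libraries, whatever its source. Duplicates differed beyond sampling noise in every group.

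NRF2, encoded by Nfe2l2, is a transcription factor that the adaptor protein KEAP1 marks for degradation in unstressed cells. Oxidants and electrophiles release it, and as a dimer with a small MAF protein it binds antioxidant response elements and raises genes for glutathione synthesis, quinone reduction and thiol repair. 5-FU blocks thymidylate synthase and is incorporated into nucleic acids, and dividing marrow cells are among those it harms most. BMX-001 is a redox-active manganese porphyrin.

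Total counts were 32279138 to 39909188 per library, haemoglobin transcripts took 3.87% to 6.17% of counts and mitochondrial transcripts 0.648% to 1.06%. Erythroid, granulocytic, monocytic and B-lineage markers were all detected, Alb (liver) had 0 counts in all 8 libraries, and the muscle genes Acta1, Ckm and Myh4 stayed at or below 0.342 CPM (counts scaled to a common library total). Xist was at 0.058 to 0.256 CPM and the Y-linked Ddx3y at 42.3 to 50.9 CPM, so all 8 libraries had the transcripts of male animals. KO 5-FU replicate 1 stood apart from the other 7 libraries: its score on the leading principal component (28.4% of the variance) was 51.2, the rest scoring -20.1 to 1.61, and immunoglobulin transcripts were 1.09% of its counts against 0.213% to 0.393% elsewhere. Counts of called genes without it are given for each list where they differ.

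Promoter sequences are shown because they allow a search for the spelling of the antioxidant response element next to the start site. They are from RefSeq (GRCm38.p6) and cover the 250 bases upstream of the start, 5′ to 3′ on the gene's strand. Capitals mark matches to TGACNNNGC or TGAGNNNGC on either strand. Pir and Srxn1 are shown because they were the most reduced targets with a match, and Nqo1 and Cat because they fell as well but have no match in this window.
Pir (chrX:164269181-164269430, plus strand): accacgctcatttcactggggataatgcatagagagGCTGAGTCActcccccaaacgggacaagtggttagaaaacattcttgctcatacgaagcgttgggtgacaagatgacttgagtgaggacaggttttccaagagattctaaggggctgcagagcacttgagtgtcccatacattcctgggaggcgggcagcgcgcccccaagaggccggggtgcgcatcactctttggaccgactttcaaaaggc
Srxn1 (chr2:152105274-152105523, plus strand): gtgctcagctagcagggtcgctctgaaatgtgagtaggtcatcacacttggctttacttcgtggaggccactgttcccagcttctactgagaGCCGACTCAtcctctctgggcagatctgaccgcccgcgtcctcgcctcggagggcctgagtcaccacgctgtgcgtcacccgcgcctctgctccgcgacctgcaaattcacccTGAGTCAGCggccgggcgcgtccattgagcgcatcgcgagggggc
Nqo1 (chr8:107403206-107403455, minus strand): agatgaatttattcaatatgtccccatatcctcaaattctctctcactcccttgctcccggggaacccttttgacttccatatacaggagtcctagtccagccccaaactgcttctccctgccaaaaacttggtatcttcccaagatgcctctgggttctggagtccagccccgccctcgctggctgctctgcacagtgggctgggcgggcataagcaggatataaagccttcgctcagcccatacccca
Cat (chr2:103485154-103485403, minus strand): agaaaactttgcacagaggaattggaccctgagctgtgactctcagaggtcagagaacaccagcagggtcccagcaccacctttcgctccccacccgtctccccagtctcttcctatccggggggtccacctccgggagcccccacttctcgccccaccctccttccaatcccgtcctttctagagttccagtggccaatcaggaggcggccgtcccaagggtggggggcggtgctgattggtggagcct
In Pir the match lay on the minus strand of the gene, 214 to 206 bases before the start, and read TGACTCAGC on that strand. Srxn1 had 2 matches, TGAGTCGGC on the minus strand at 158 to 150 bases and TGAGTCAGC on the plus strand at 45 to 37 bases before the start. Either spelling occurred in 23.0% of the 32851 promoter windows of this length in the table, so a match by itself is common. Of the tested genes with a promoter in the table, 29.7% (3280 of 11052) had one. Among the genes lower in KO it was 37.8% (37 of 98), and among those higher in KO 29.4% (5 of 17). These shares are descriptions of letters in a window and say nothing about binding.

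Nfe2l2 itself (ENSMUSG00000015839.7) stood at 125, 125, 121 and 121 CPM in the WT libraries and 6.71, 7.62, 9.75 and 9.92 CPM in the KO libraries. Values are listed throughout in the order 5-FU replicates 1 and 2, then BMX-001 and 5-FU replicates 1 and 2, and CPM are normalised to the library sizes used in the fit. The KO libraries kept a low level of reads, and the genotypes, 4 libraries each, were far apart in both treatments. The log2 fold change of KO over WT was -3.87 ± 0.10 (SE), with an adjusted p of 4.99e-10 in edgeR's quasi-likelihood test after Benjamini-Hochberg correction, which is the source of every adjusted p below unless DESeq2 is named.

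Across all genes, 160 of 17474 were called at an adjusted p under 0.05 (0.916%), of which 31 were higher in KO (0.177%) and 129 lower (0.738%). Lower genes thus outnumbered higher ones, although the median log2 fold change of all tested genes was 0.01 and 48.0% of them were negative. Most of the decreases were small: leaving out Nfe2l2, the 128 lower genes had a median of -0.38, 25 of them fell past -0.5 and 6 past -1. The 31 increases were larger, with a median of 1.03 and 16 past 1, and they came from genes of lower abundance, at a median mean level of 2.39 log2 CPM against 6.56 for the lower genes. All 159 genes had the same sign with and without BMX-001, and the libraries of both strata entered the test that selected them. In 151 of them the 4 KO libraries did not overlap the 4 WT libraries, against 7.74% of all tested genes. The same 8 libraries selected these genes, which by itself favours such separation.

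The number called depended on single libraries. It was 24 without WT 5-FU replicate 1, 38 without WT BMX-001 and 5-FU replicate 2, 42 without KO BMX-001 and 5-FU replicate 1, 63 without WT 5-FU replicate 2, 92 without KO BMX-001 and 5-FU replicate 2, and 102 without KO 5-FU replicate 2. The removal of KO 5-FU replicate 1 raised it to 341. DESeq2 called 540. Of the 160 genes, 21 were called in each of the 8 fits that left out 1 library. These were Nfe2l2, Pir, Srxn1, Cat, Marco, Cd5l, Ide, Ccdc92b, Slfn14, Fhdc1, Ifi209, Fbxo30, Ibtk and H2-T24 on the lower side, and Tanc1, Dynlt1b, Lilr4b, Prm1, Igkv6-32, Igkv6-23 and Ighv6-3 on the higher side.

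**Figure D1:**
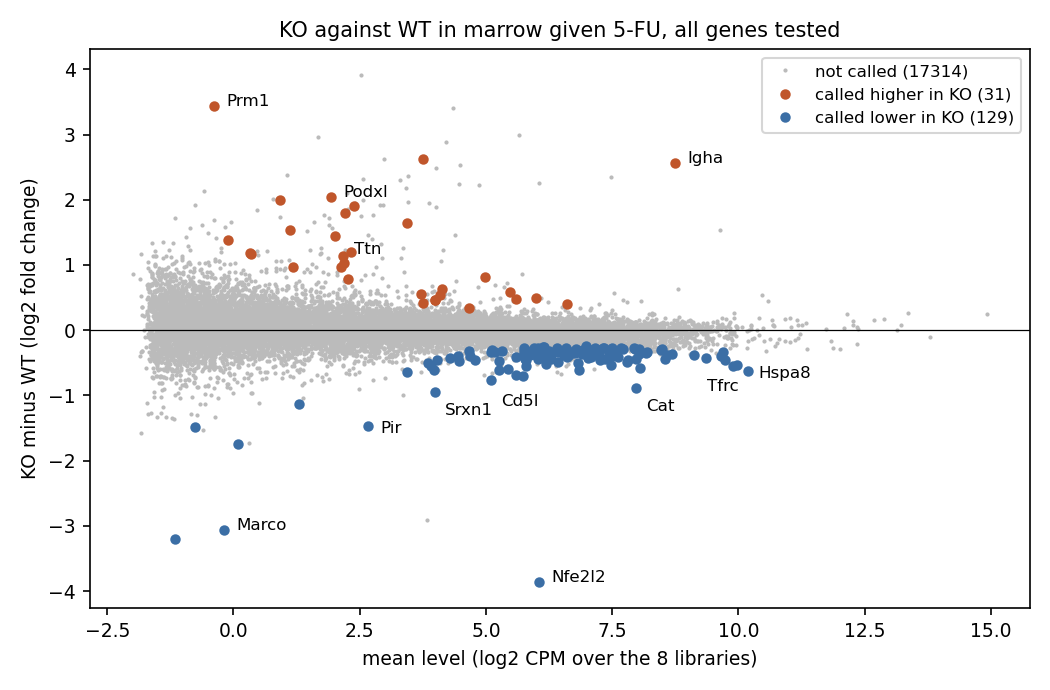
KO minus WT log2 fold change (vertical axis) against mean level in log2 CPM (horizontal axis) for the 17474 genes tested in marrow given 5-FU, one point per gene; coloured points are the 31 genes called higher and the 129 called lower in KO. Nfe2l2 lies at -3.87, and most genes called lower lie between 0 and -1 at levels above 5 log2 CPM, whereas genes called higher are spread over lower levels.

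Among 30 tested NRF2 detoxification and redox targets, 3 fell (Pir, Srxn1 and Nqo1) and none rose, against 0.738% of all genes called lower, with a list median of -0.06. The count was 2 to 4 in the fits with 1 library left out, 4 being without KO 5-FU replicate 1. Pir, an iron-binding nuclear protein, was at 8.41, 9.20, 9.92 and 9.29 CPM in WT and 2.95, 3.24, 3.32 and 3.75 CPM in KO. Every KO value was below 4 CPM and every WT value above 8 CPM. The log2 fold change was -1.47 ± 0.11 (adjusted p = 0.000131), close in the 2 strata at -1.51 with 5-FU alone and -1.44 with BMX-001 and 5-FU. Srxn1, sulfiredoxin, which repairs over-oxidised peroxiredoxins, was at 18.5, 19.2, 24.7 and 20.8 CPM in WT and 11.5, 10.2, 10.6 and 10.5 CPM in KO, a log2 fold change of -0.95 ± 0.10 (adjusted p = 0.000708). Its highest KO library lay well below its lowest WT library. Nqo1, the quinone reductase used most widely as an NRF2 readout, was at 17.4, 17.4, 21.4 and 19.9 CPM in WT and 14.6, 11.2, 11.9 and 12.0 CPM in KO. The groups did not overlap, but KO 5-FU replicate 1 lay nearer to WT than the other 3 KO libraries. Its log2 fold change was -0.61 ± 0.10 (adjusted p = 0.0183), and it was called in 2 of the 8 fits with 1 library left out, the highest adjusted p being 0.0981.

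The other 27 tested members of that list were not called. Hmox1, haem oxygenase 1, was at 115 to 155 CPM in WT and 133 to 157 CPM in KO, so the groups overlapped (0.05 ± 0.08, adjusted p = 0.878). Txnrd1, thioredoxin reductase 1, was at 97.4, 101, 104 and 92.7 CPM in WT and 91.1, 80.7, 91.0 and 75.9 CPM in KO. Its KO libraries were all below WT, by a narrow margin, without passing the test (-0.22 ± 0.07, adjusted p = 0.197). Ftl1, the ferritin light chain, likewise had all KO libraries below WT (-0.23, adjusted p = 0.218). The glutathione transferases Gstm1 (-0.18) and Gstp1 (0.08), the peroxiredoxin Prdx1 (-0.13) and the export pump Abcc1 (0.16) lay on either side of 0.

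Of 16 glutathione genes, 2 fell, against 0.738% of all genes, and 8 were negative and 8 positive. The count was 0 without WT 5-FU replicate 1 or 2, WT BMX-001 and 5-FU replicate 2, or KO BMX-001 and 5-FU replicate 1, 1 without WT BMX-001 and 5-FU replicate 1, KO 5-FU replicate 2 or KO BMX-001 and 5-FU replicate 2, and 3 without KO 5-FU replicate 1. Gclc, the catalytic subunit of the enzyme that limits glutathione synthesis, was at 145, 146, 149.6 and 152 CPM in WT and 122, 97.3, 107 and 115 CPM in KO (-0.43 ± 0.07, adjusted p = 0.0149). The WT libraries lay within 8 CPM of each other, and all KO libraries lay at least 20 CPM below them. It was called in 4 of the 8 leave-one-out fits, the highest adjusted p being 0.0852. Chac2, a glutathione-degrading enzyme, was at 24.0 to 25.5 CPM in WT and 17.5 to 22.1 CPM in KO (-0.39 ± 0.08, adjusted p = 0.0489), and was called in 1 of the 8 leave-one-out fits. Gclm, the modifier subunit, missed the threshold at -0.28 ± 0.06 (adjusted p = 0.0541), with KO at 230.2 to 260.5 CPM below WT at 285 to 312 CPM. Slc7a11, the cystine transporter, overlapped between the genotypes (-0.37 ± 0.15, adjusted p = 0.333); Gss (0.21) and Gsr (0.20) were not called.

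Of 22 other antioxidant enzymes 1 was called lower, against 0.738% of all genes (2 without KO 5-FU replicate 1, and 3 with DESeq2). This was catalase (Cat), which breaks down hydrogen peroxide. It stood at 293, 292, 351 and 365 CPM in WT and 166, 185, 171 and 178 CPM in KO, a log2 fold change of -0.89 ± 0.07 (adjusted p = 0.000141). No KO library came within 100 CPM of a WT library. The difference was -0.74 with 5-FU alone and -1.04 with BMX-001 and 5-FU. The superoxide dismutases Sod1 (-0.08) and Sod2 (0.01) and the peroxiredoxin Prdx6 (0.02) were not called. None of 12 genes for NADPH supply was called. G6pdx, the entry enzyme of the pentose phosphate pathway, was at 282 to 319 CPM in WT and 283 to 342 CPM in KO (0.05 ± 0.06), and Tkt and Taldo1 of the same pathway were at 0.09 and -0.03, neither called.

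Beside Nfe2l2, 2 of the other 14 tested NRF2 regulators fell, against 0.738% of all genes called lower. Mafg, a small MAF partner of NRF2, was at 125, 114, 129 and 116 CPM in WT and 98.5, 96.9, 99.9 and 102 CPM in KO (-0.29 ± 0.06, adjusted p = 0.0339). Btrc, a ubiquitin ligase subunit that targets NRF2, was at 119, 115, 118 and 135 CPM in WT and 88.4, 92.9, 92.0 and 108 CPM in KO (-0.35 ± 0.07, adjusted p = 0.0312). The list, with Nfe2l2, had 1 call without WT 5-FU replicate 1 or 2, WT BMX-001 and 5-FU replicate 2, KO 5-FU replicate 2 or KO BMX-001 and 5-FU replicate 1, and 4 without KO 5-FU replicate 1. Both sets of libraries were separate but close, and Mafg was called in 1 and Btrc in 3 of the 8 leave-one-out fits. Keap1, the repressor (-0.09), Cul3, its ligase scaffold (-0.05), and the competing repressor Bach1 (-0.09) were not called, nor was Maff, another small MAF (0.75, adjusted p = 0.544).

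**Figure D2:**
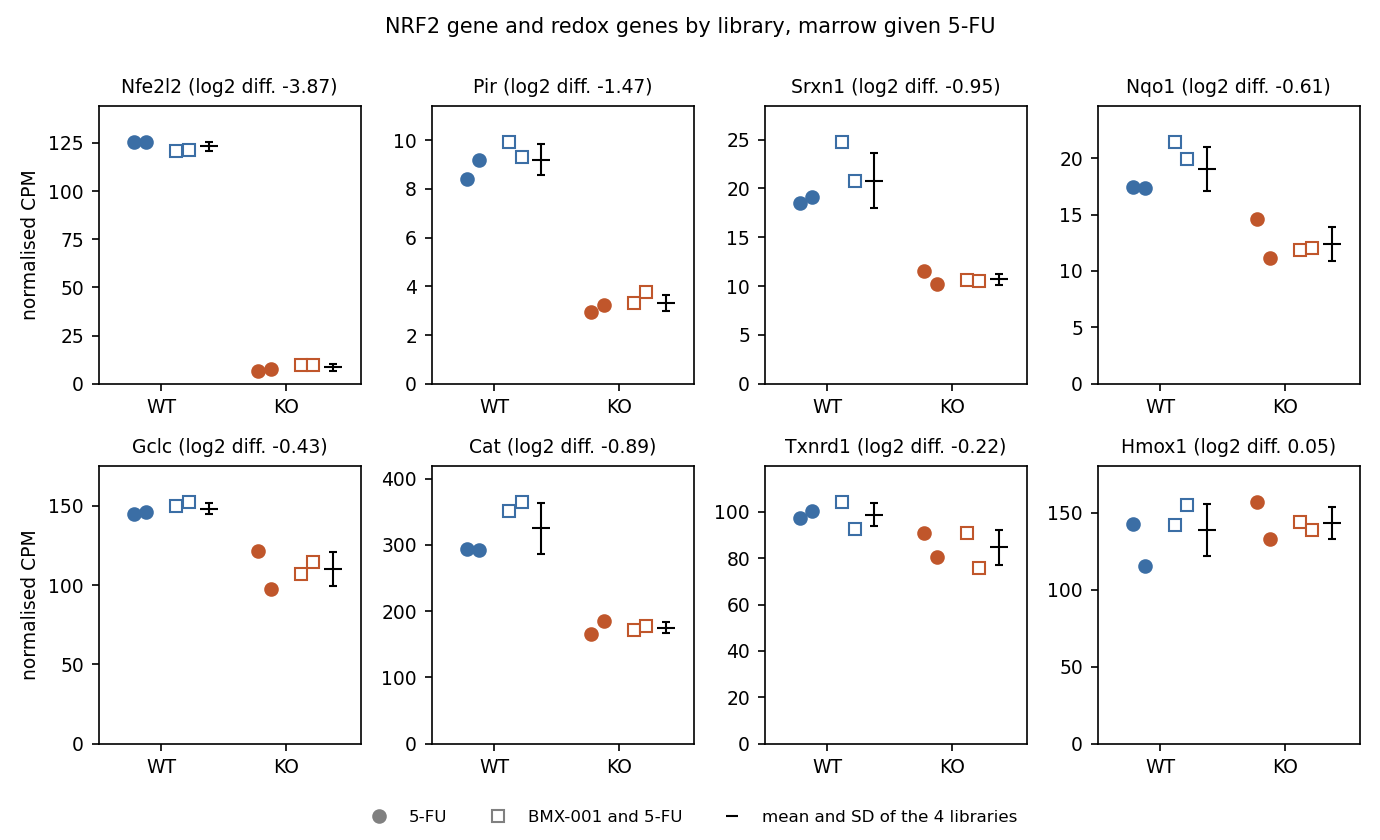
Normalised CPM (vertical axis, from 0) of Nfe2l2 and 7 redox genes in the 4 WT and 4 KO libraries given 5-FU; filled circles are 5-FU alone, open squares BMX-001 and 5-FU, and the black bar gives the mean and SD of the 4 libraries of a genotype. KO libraries lie below all WT libraries for Nfe2l2, Pir, Srxn1, Nqo1, Gclc, Cat and Txnrd1 (the last not called), and the genotypes overlap for Hmox1.

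Part of the erythroid genes were lower in KO marrow after 5-FU. Of 34 tested genes of erythroid maturation and the red cell membrane, 7 fell and none rose, against 0.738% of all genes called lower, and 32 of the 34 had negative values with a list median of -0.21. In 14 of them all KO libraries were below all WT libraries, against 4.38% of all genes. In whole marrow, fewer erythroid cells and less RNA of these genes per cell cannot be told apart.

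Tfrc, the transferrin receptor that imports iron into erythroblasts, was at 1388, 1269, 1054 and 1049 CPM in WT and 869, 798, 783 and 825 CPM in KO. Every KO library lay below every WT library, and within WT the level was lower with BMX-001 (-0.53 ± 0.08, adjusted p = 0.00831). Epb42, protein 4.2 of the membrane skeleton, was at 422, 405, 435 and 459.7 CPM in WT and 330.0, 307, 297 and 332 CPM in KO (-0.44 ± 0.06, adjusted p = 0.00877). For both genes the groups were separate. Xpo7, an exportin needed for nuclear condensation, fell by the largest amount of the 7 (-0.55 ± 0.11, adjusted p = 0.0321), from 998 to 1193 CPM in WT to 604 to 869 CPM in KO. The ubiquitin ligase genes Trim10 (-0.39 ± 0.07, adjusted p = 0.0183) and Trim58 (-0.39 ± 0.07, adjusted p = 0.0312), both active in terminal maturation, and Tmcc2 (-0.45 ± 0.08, adjusted p = 0.026) fell too.

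Other erythroid genes did not pass the test. Sptb, beta-spectrin of the membrane skeleton, was at -0.32 (adjusted p = 0.0631). The regulators Gata1 (-0.04), Klf1 (-0.20) and Gfi1b (0.01) and the erythropoietin receptor Epor (-0.15) were not called. None of 8 tested haemoglobin chains was called, although 5 had an unadjusted p under 0.05, against 2200 of all 17474 genes. The main adult chains lay on the other side of 0, Hbb-bs at 0.26 and Hba-a1 at 0.26. The summed level of all 8 chains, 48655 to 61296 CPM in KO and 38828 to 58462 CPM in WT, was not lower in KO. None of 26 tested genes of haem synthesis and iron was called, with a median of -0.14. An unadjusted p under 0.05 was met by 12 of them, against 2200 of all 17474 genes. Without KO 5-FU replicate 1, 3 were called lower, and with DESeq2 4. Alas2, the first enzyme of erythroid haem synthesis, was at 0.12. Malat1, a nuclear RNA, overlapped between the genotypes at 2638 to 4538 CPM in KO and 3698 to 5531 CPM in WT, and its part in the erythroid result was not tested.

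The erythroid count rested on single libraries more than its direction did. Of the list, 0 genes were called without WT 5-FU replicate 1, 1 without WT BMX-001 and 5-FU replicate 2, 2 without KO BMX-001 and 5-FU replicate 1, 4 without KO 5-FU replicate 2 or KO BMX-001 and 5-FU replicate 2, and 18 without KO 5-FU replicate 1, while DESeq2 called 17. With all 16 libraries in 1 fit, 0 erythroid and 0 interferon-stimulated genes were called. The list median stayed between -0.27 and -0.17 in these fits.

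Part of the interferon-stimulated genes were lower as well. Of 32 tested, 4 fell and none rose, against 0.738% of all genes called lower, 29 were negative, and the list median was -0.32. Irf9, the DNA-binding subunit of the complex that relays type I interferon, was at 92.0, 76.5, 85.6 and 81.8 CPM in WT and 69.5, 58.8, 63.0 and 60.3 CPM in KO (-0.42 ± 0.07, adjusted p = 0.0198). Rsad2, the antiviral enzyme viperin, was at 705, 609.7, 869.9 and 818 CPM in WT and 521, 536, 611 and 557 CPM in KO (-0.42 ± 0.07, adjusted p = 0.0199). Irf9 separated the genotypes, whereas for Rsad2 the highest KO library just exceeded the lowest WT library. Cmpk2, a mitochondrial nucleotide kinase induced by interferon, was at -0.33 ± 0.06 (adjusted p = 0.0335) and Parp14 at -0.37 ± 0.07 (adjusted p = 0.0369).

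The remaining members varied more between libraries. Isg15 was at -0.65 (adjusted p = 0.175), Ifit1 at -0.59 (adjusted p = 0.0925) and Mx1 at -0.53 (adjusted p = 0.0982), none of them called, and the 3 positive members were Ifit1bl1 (0.10), Gbp3 (0.05) and Oas1g (0.01). The count was 0 without WT 5-FU replicate 1, WT BMX-001 and 5-FU replicate 2, or KO BMX-001 and 5-FU replicate 2. It was 1 without KO 5-FU replicate 2 or KO BMX-001 and 5-FU replicate 1, and 11 without KO 5-FU replicate 1, with medians between -0.45 and -0.24. DESeq2 called 11 as well. Outside the list, Ifi209 (-0.52 ± 0.07, adjusted p = 0.00763), an interferon-inducible gene named after its value was seen, was called in all 8 of these fits.

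Macrophage genes split. Marco, a scavenger receptor of resident macrophages, was at 1.17, 1.13, 1.75 and 1.72 CPM in WT and 0.149, 0.168, 0.246 and 0.111 CPM in KO (-3.07 ± 0.28, adjusted p = 0.000424). It was a rare transcript in both genotypes and nearly absent from KO libraries. DESeq2 gave it no adjusted p, and a filter at a mean of 1 CPM left it out, so its call rests on the edgeR fits with a looser filter. Cd5l, a protein secreted by resident macrophages, was at 38.1, 39.8, 43.5 and 50.3 CPM in WT and 26.6, 24.9, 24.2 and 25.3 CPM in KO (-0.76 ± 0.08, adjusted p = 0.00112), without overlap. Cd163, the haemoglobin scavenger receptor, rose, from 46.8, 50.7, 52.9 and 61.2 CPM in WT to 54.7, 75.9, 82.6 and 85.8 CPM in KO (0.49 ± 0.09, adjusted p = 0.0312). KO 5-FU replicate 1 lay inside the WT range for Cd163, and the gene was called in 1 of the 8 leave-one-out fits. Of 25 tested resident and island macrophage genes 12% were called, against 0.916% of all genes, and the other 22 were not. Their highest value was that of Vsig4, a complement receptor (0.83, adjusted p = 0.543), and Adgre1 (0.01), C1qa (0.06), Mertk (0.04), Siglec1 (-0.08) and Spic (-0.04), which mark the same cells, lay near 0.

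A few dendritic cell genes were higher in KO: 3 of 24 rose and none fell, against 0.177% of all genes called higher, and the median was 0.19. Ccr9, a chemokine receptor of plasmacytoid dendritic cells, was at 12.7, 13.6, 14.1 and 13.3 CPM in WT and 20.6, 17.3, 18.4 and 17.6 CPM in KO (0.46 ± 0.08, adjusted p = 0.0289). Flt3, the growth factor receptor of dendritic and lymphoid progenitors, was at 20.4, 23.1, 23.4 and 23.0 CPM in WT and 27.4, 30.6, 27.9 and 28.3 CPM in KO (0.35 ± 0.07, adjusted p = 0.0489). Ly75, the uptake receptor DEC-205, was at 0.41 ± 0.08 (adjusted p = 0.0297) and lies on chromosome 2 near Nfe2l2. The groups were separate for all 3, and Ccr9 was called in 3, Flt3 in 1 and Ly75 in 3 of the 8 leave-one-out fits. Siglech (0.32, adjusted p = 0.0841) missed the threshold, and the MHC class II genes H2-Aa (0.24), H2-Ab1 (0.27) and Cd74 (0.19) were not called.

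**Figure D3:**
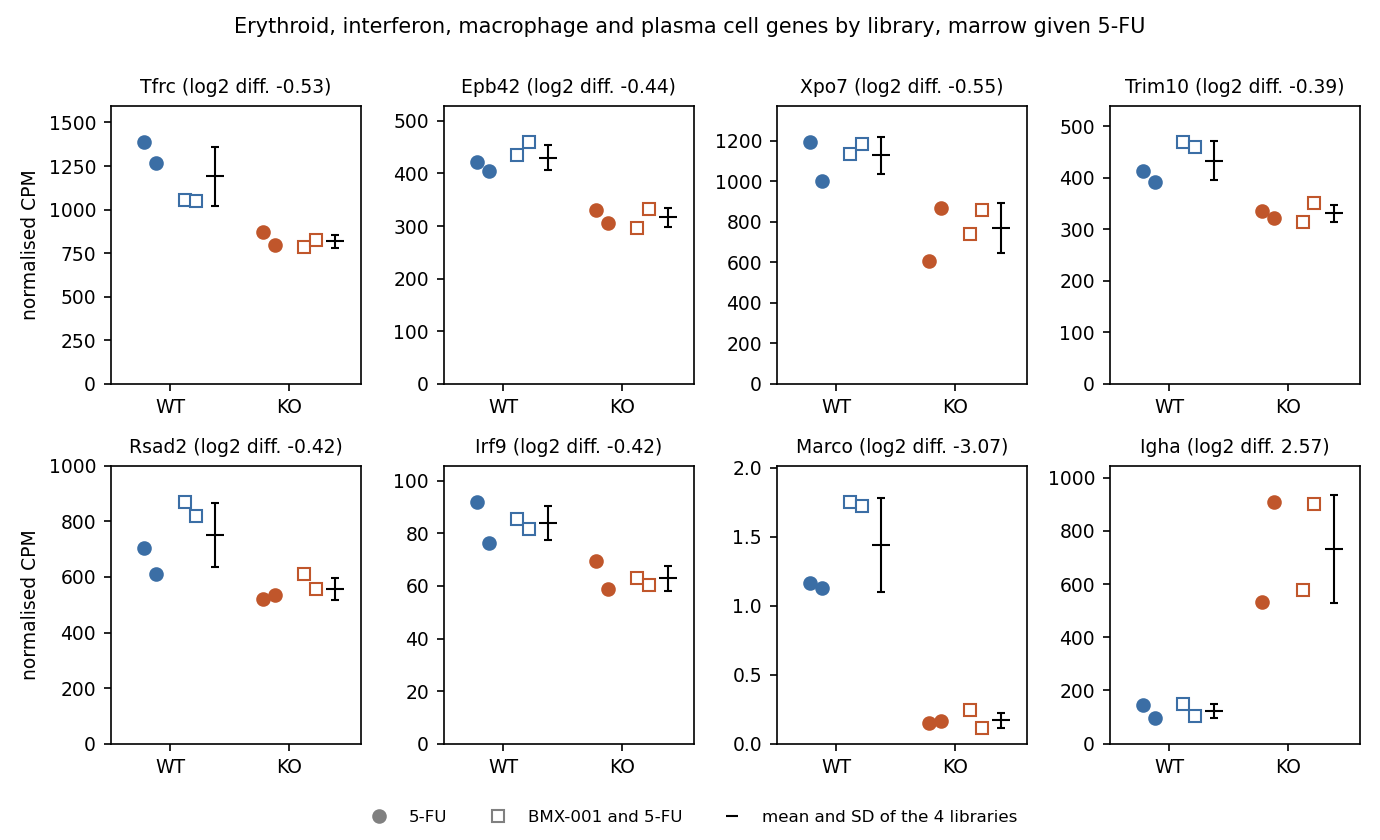
Normalised CPM (vertical axis, from 0) of 4 erythroid genes (Tfrc, Epb42, Xpo7, Trim10), 2 interferon-stimulated genes (Rsad2, Irf9), Marco and Igha in the 4 WT and 4 KO libraries given 5-FU; filled circles are 5-FU alone, open squares BMX-001 and 5-FU, black bars the mean and SD of 4 libraries. KO libraries lie below WT for the first 4 genes, Irf9 and Marco, overlap slightly with WT for Rsad2, and lie at 531 to 909 CPM against 95.6 to 149 CPM in WT for Igha.

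In the B lineage, a few immunoglobulin transcripts were higher in KO. Of 166 tested variable segments 6 rose, against 0.177% of all genes called higher, and none fell. Of the 166, 139 were positive, 24 had all KO libraries above WT (against 3.36% of all genes), and of 11 constant region and other immunoglobulin genes 1 rose. The 12 tested D or J segments went the other way, with 2 positive, a median of -0.24 and 0 called. Igha, the constant region of IgA, was at 144, 95.6, 149 and 105 CPM in WT and 531, 909, 579 and 903 CPM in KO (2.57 ± 0.28, adjusted p = 0.0232). The genotypes were far apart, and the gene was called in 3 of the 8 leave-one-out fits. Among variable segments, Ighv6-3 was at 3.77, 5.42, 6.83 and 5.00 CPM in WT and 16.7, 16.5, 17.7 and 14.8 CPM in KO (1.65 ± 0.15, adjusted p = 0.000309), and Igkv6-23 was at 5.20, 3.52, 3.02 and 3.39 CPM in WT and 28.3, 22.6, 14.6 and 26.9 CPM in KO (2.62 ± 0.21, adjusted p = 0.00073). Segments of a family are similar in sequence, and how the authors' counting assigned reads between them was not described in the sources.

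Igha was the 1 called of 21 plasma cell genes, against 0.177% of all genes called higher. The list median was 0.25, or 0.06 without KO 5-FU replicate 1, where 2 were called higher. Jchain, which joins IgA and IgM into polymers, had all KO libraries above WT, at 48.1, 44.3, 55.0 and 73.9 CPM in WT and 587, 242, 155 and 221 CPM in KO, without passing the test (2.35 ± 0.51, adjusted p = 0.156). KO 5-FU replicate 1 had the highest value of all libraries for Jchain and also for Ighm, where it was at 4827 CPM against 1042 to 1487 CPM in WT and 845 to 991 CPM in the other 3 KO libraries. Ighm was not called, and its log2 fold change was 0.45 with and -0.37 without that library. The plasma cell regulators Prdm1 (0.58), Xbp1 (-0.01) and Irf4 (-0.52) were not called. None of 24 B cell precursor genes was called, although 22 were negative and the median was -0.34. An unadjusted p under 0.05 was met by 12 of the 24, against 2200 of all 17474 genes. In the libraries without 5-FU the median of these genes was -0.39, and none was called there either. Given 5-FU, the summed level of the 24 genes was 1264 to 1832 CPM in KO and 1769 to 2261 CPM in WT, lowest in KO 5-FU replicate 1. Rag1 (-0.67), Rag2 (-0.73) and Vpreb3 (-0.66), used in rearrangement and the pre-B receptor, were each not called. Without KO 5-FU replicate 2, 6 of the 24 were called lower, and DESeq2 called 5.

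Lists of the other marrow lineages had few or no calls. None was called among 19 primary granule genes (median 0.14, and 0.08 to 0.18 with 1 library left out), 22 secondary granule genes (0.15, 0.08 to 0.22), 26 mature neutrophil genes (0.11, 0.06 to 0.21) or 26 monocyte genes (-0.03, -0.07 to 0.05). Nor was any among 23 mature B cell genes (-0.09, -0.13 to -0.07), 21 megakaryocyte genes (-0.14, -0.33 to 0.06), 31 stroma and bone genes (0.10, -0.03 to 0.28) or 18 genes of basophils, mast cells and eosinophils (0.29, 0.09 to 0.31). The megakaryocyte median was positive without WT BMX-001 and 5-FU replicate 2. Unadjusted p under 0.05 was met by 4, 3, 5, 2, 5, 0, 2 and 2 genes of these lists in the order given, against 2200 of all 17474 genes. DESeq2 called 0, 3, 2, 2, 0, 0, 1 and 1 in the same order. Without KO 5-FU replicate 1, 1 secondary granule, 1 monocyte and 2 stroma genes were called higher. Without KO 5-FU replicate 2, 3 mature B cell genes were called lower and 1 basophil, mast cell or eosinophil gene higher. In the last list the summed level varied widely, 2004 to 5867 CPM in KO against 1952 to 2936 CPM in WT. Among 27 T and NK cell genes 1 rose, against 0.177% of all genes called higher. This was Cd4, at 13.7, 12.9, 13.6 and 15.1 CPM in WT and 21.8, 17.5, 20.7 and 20.7 CPM in KO (0.54 ± 0.09, adjusted p = 0.0149). Cd4 is also expressed by plasmacytoid dendritic cells, and its call was lost without either WT 5-FU library or KO BMX-001 and 5-FU replicate 1. Cd3e (0.24) and Trac (0.33) were not called. Among 22 stem and progenitor genes 1 was called higher, Flt3, already named, against 0.177% of all genes. Kit, the stem cell factor receptor, was at 0.28 (adjusted p = 0.0728).

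Genes of the p53 response and of 5-FU metabolism, pathways the drug acts on, had few calls. Of 30 p53 targets 1 rose, against 0.177% of all genes called higher. Zmat3, an RNA-binding p53 target, was at 12.5, 12.3, 10.5 and 11.1 CPM in WT and 15.3, 16.7, 14.6 and 15.3 CPM in KO (0.42 ± 0.08, adjusted p = 0.0321), and was called in 1 of the 8 leave-one-out fits. Cdkn1a, the cell cycle inhibitor p21, had all KO libraries above WT, 34.2, 25.4, 25.3 and 21.8 against 15.3, 16.5, 18.9 and 12.0 CPM, and missed the threshold (0.76 ± 0.15, adjusted p = 0.051). Mdm2 (-0.10) and Bax (-0.04) were not called. The p53 list median was 0.04, and DESeq2 called 3 members higher and 3 lower. Of the 30, 3 had all KO libraries above WT and 3 all below, against 3.36% and 4.38% of all genes. Their summed level was 1012 to 1091 CPM in KO, below the 1100 to 1161 CPM in WT. An unadjusted p under 0.05 was met by 10 of them, against 2200 of all 17474 genes. None of 21 genes of thymidylate and 5-FU metabolism was called, with Tyms, the drug's target, at -0.06, Rrm1 at -0.04 and Rrm2 at -0.09. None of 36 cell cycle genes was called, although 31 were negative (median -0.08). An unadjusted p under 0.05 was met by 8 of them, against 2200 of all 17474 genes. Without KO 5-FU replicate 1 all 36 were negative (median -0.15) and 3 were called lower, 1 was called lower without WT BMX-001 and 5-FU replicate 1, and DESeq2 called 4 lower. Mki67 was at 3768 to 4393 CPM in WT and 3069 to 3673 CPM in KO (-0.27 ± 0.08, adjusted p = 0.178). Immediate early genes, NF-kappaB and cytokine genes, and ATF4 and unfolded protein genes had 0 calls among 22, 24 and 26 tested, with medians of 0.19, 0.17 and -0.06. At an unadjusted p under 0.05 there were 7, 6 and 7, against 2200 of all 17474 genes. DESeq2 called 2 higher and 1 lower in the first list, 2 higher in the second and 3 lower in the third.

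**Figure D4:**
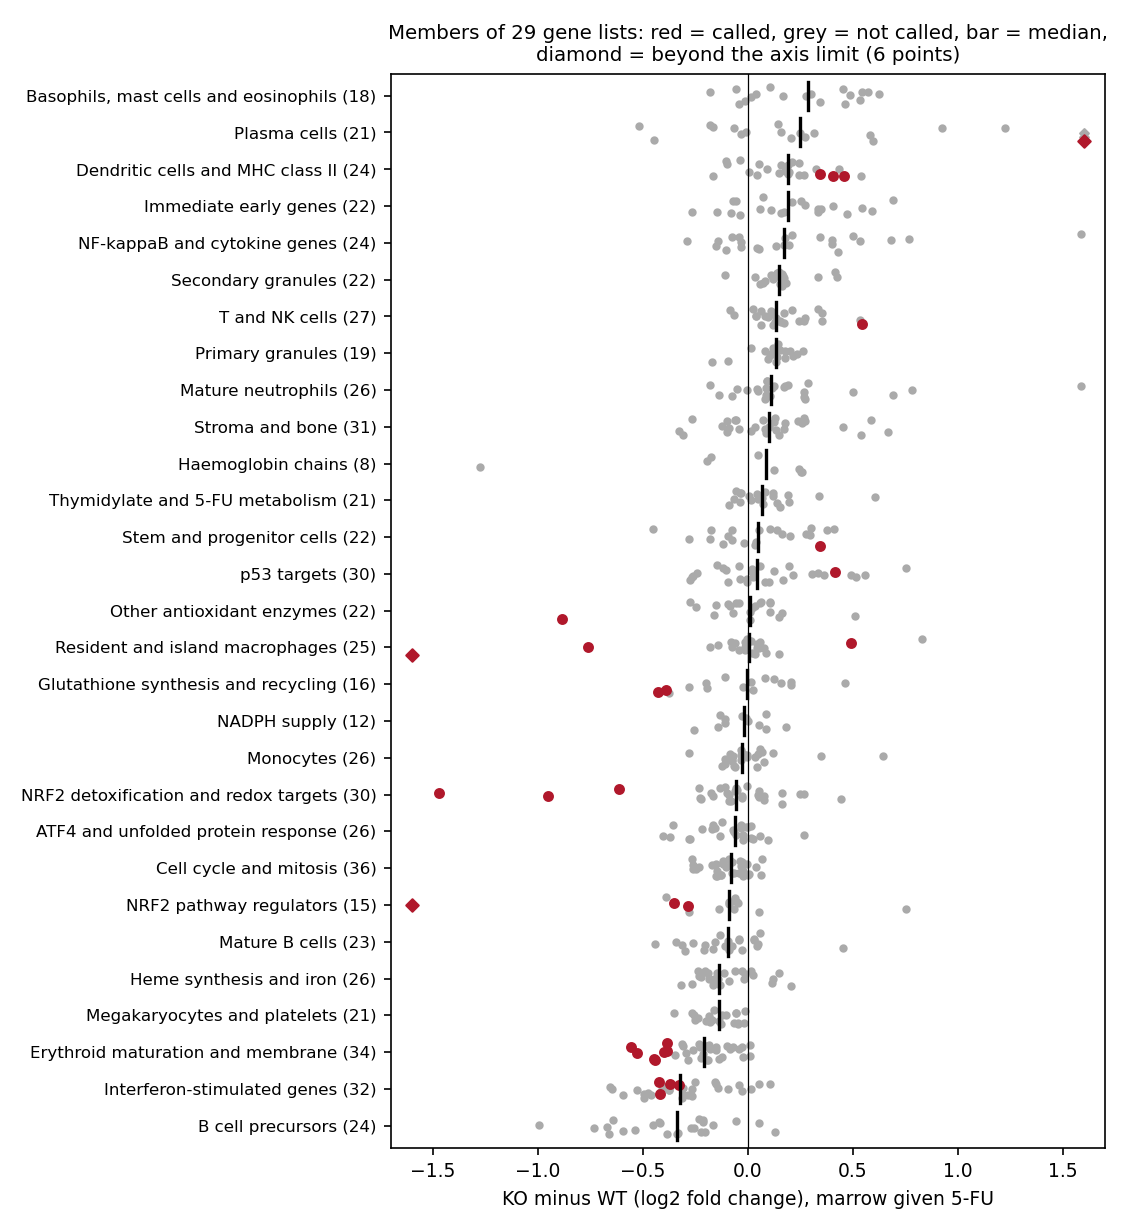
KO minus WT log2 fold change given 5-FU (horizontal axis) of every tested member of 29 gene lists (one row per list, number tested in brackets, ordered by median); red points were called, grey points were not, black bars are medians and diamonds mark 6 points beyond the axis limit of 1.6. B cell precursors (-0.34), interferon-stimulated genes (-0.32) and erythroid genes (-0.21) have the lowest medians, and the called NRF2 targets stand apart from the rest of their list.

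Genes outside these lists changed as well. On the lower side, Hspa8, a constitutive chaperone of the heat shock 70 family, was at 1981, 1479, 1200.4 and 1048 CPM in WT and 994, 979, 863 and 785 CPM in KO (-0.63 ± 0.10, adjusted p = 0.0173). Every KO library was below every WT library, and within each genotype both libraries with 5-FU alone exceeded both with BMX-001. Ide, the insulin-degrading enzyme, was at 148, 144, 133 and 128 CPM in WT and 98.5, 88.9, 93.1 and 82.3 CPM in KO (-0.61 ± 0.06, adjusted p = 0.000665). Ppp1r15a, which restores translation after stress, was at 285, 283, 362 and 347 CPM in WT and 221, 206, 187 and 234 CPM in KO (-0.58 ± 0.09, adjusted p = 0.00948). Each of these genes separated the genotypes. Otub2, a deubiquitinase (-0.59), Prokr1, a prokineticin receptor (-0.56), Ccdc92b (-0.70), Sowaha (-0.69) and AW011738 (-0.60) complete the 15 largest decreases that met the naming rule, with adjusted p of 0.00763, 0.014, 0.00223, 0.0189 and 0.00877.

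On the higher side, 13 genes met the naming rule. Podxl, the sialomucin podocalyxin, was at 1.66, 1.08, 1.37 and 1.80 CPM in WT and 6.62, 4.66, 9.81 and 3.39 CPM in KO (2.05 ± 0.32, adjusted p = 0.0192). The KO values varied widely among themselves, and the gene was called in 3 of the 8 leave-one-out fits. Dynlt1b, a dynein light chain gene with near-identical copies, was at 2.28, 2.93, 3.27 and 2.65 CPM in WT and 6.47, 6.00, 5.60 and 6.34 CPM in KO (1.13 ± 0.15, adjusted p = 0.0048), and the split of reads between its copies is uncertain. Lilr4b, an inhibitory leukocyte receptor, was at 37.0, 34.1, 39.4 and 31.3 CPM in WT and 52.7, 49.0, 62.6 and 49.8 CPM in KO (0.59 ± 0.09, adjusted p = 0.0122). Both were called in every leave-one-out fit. The linker histone H1f0 (0.47 ± 0.08, adjusted p = 0.0149), Plppr3 (0.55 ± 0.09, adjusted p = 0.0183) and the calcium channel gene Cacna1c (0.97 ± 0.19, adjusted p = 0.0321) rose too, Cacna1c from below 2 CPM. H1f0 was called in 5, Plppr3 in 4 and Cacna1c in 1 of the 8 leave-one-out fits.

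Of the 200 tested genes nearest to Nfe2l2 in annotation order, 100 on either side, 5 were called, or 2.5%, against 0.892% of the remaining genes. The difference between these shares was not tested. On the side of lower order, Tanc1, a synaptic scaffold gene 74 tested genes away, was at 23.4, 25.1, 20.1 and 23.0 CPM in WT and 40.4, 41.0, 42.7 and 36.2 CPM in KO (0.81 ± 0.08, adjusted p = 0.000474), without overlap. Ly75, at 67 genes, is given above. Mrpl23-ps1, a pseudogene 5 genes away, was at 0.526, 0.668, 0.825 and 0.765 CPM in WT and 0.0298, 0.168, 0 and 0.0834 CPM in KO (-3.20 ± 0.51, adjusted p = 0.0149). On the other side, E030042O20Rik, the next tested gene, was at 1.52, 1.64, 1.57 and 1.39 CPM in WT and 0.358, 0.531, 0.308 and 0.612 CPM in KO (-1.74 ± 0.25, adjusted p = 0.00877), and Ttn, titin, 10 genes away, was at 2.72, 2.77, 2.73 and 3.72 CPM in WT and 7.09, 4.58, 5.04 and 7.53 CPM in KO (1.03 ± 0.19, adjusted p = 0.026). All 5 separated the genotypes, and 2 of them are rare transcripts. Cat, Pak6, Epb42, Srxn1 and Top1, also called, lie farther away on the same chromosome, 120, 180, 235, 452 and 567 tested genes from Nfe2l2. On chromosome 2 as a whole, Nfe2l2 included, 11 of 1211 tested genes were called (0.908%), close to the 0.916% of all genes. The altered allele and the chromosome around it are inherited together, so an effect of NRF2 and a difference of linked sequence cannot be told apart for these genes. How far along the chromosome such a linked stretch reaches was not tested.

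Split by treatment, 33 genes were called with 5-FU alone (0.189%), 15 higher (0.0858%) and 18 lower (0.103%). With BMX-001 and 5-FU there were 24 (0.137%), 5 higher (0.0286%) and 19 lower (0.109%). Pir, Srxn1, Cat, Marco and Cd5l passed in both. Tfrc passed with 5-FU alone (-0.67, against -0.39 with BMX-001 and 5-FU), and Ppp1r15a passed with BMX-001 and 5-FU (-0.75, against -0.41 with 5-FU alone). A test of the difference between the strata called 1 gene (0.00572%), Gm16867, so neither Tfrc nor Ppp1r15a is shown to differ. Unadjusted, 2009 genes had p under 0.05 in that test, DESeq2 called 35, and edgeR called 255 without KO 5-FU replicate 2, 5 without WT BMX-001 and 5-FU replicate 1, 4 without KO 5-FU replicate 1 or KO BMX-001 and 5-FU replicate 2, and 3 without WT 5-FU replicate 1. The count with 5-FU alone was 5 without WT 5-FU replicate 2, 7 without WT 5-FU replicate 1 and 774 without KO 5-FU replicate 2. With BMX-001 and 5-FU it was 6 without WT BMX-001 and 5-FU replicate 2, 10 without KO BMX-001 and 5-FU replicate 1 or either WT 5-FU library, and 15 without KO BMX-001 and 5-FU replicate 2. Leaving out KO 5-FU replicate 1 or 2, which are not in that contrast and enter it through the shared estimate of spread, gave 225 and 201.

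The same genotype contrast in the 8 libraries that were not given 5-FU (PBS or BMX-001 alone), none of which is shared, called 1 gene of 17181 (0.00582%), Nfe2l2 (-3.58 ± 0.26, adjusted p = 0.0123). That call was lost when either KO PBS library or any of the 4 WT libraries was left out. At an unadjusted p under 0.05 there were 1165, DESeq2 called 42, and edgeR called 12 without KO BMX-001 replicate 1, a library with 13367 CPM of Malat1 against 2597 to 4517 CPM in the other 7. Of the called redox genes, 4 had values of similar size there: Pir was at -1.35 ± 0.14 (adjusted p = 0.0537), Srxn1 at -1.23 ± 0.19 (adjusted p = 0.39), Nqo1 at -0.64 ± 0.10 (adjusted p = 0.39) and Cat at -0.67 ± 0.12 (adjusted p = 0.413). Marco (-2.43), Cd5l (-0.92), Ide (-0.81) and Hspa8 (-0.65) were likewise negative without passing the test. Gclc was at -0.29, against -0.43 given 5-FU. Chac2 (0.03), Mafg (0.02) and Btrc (0.06) lay near 0 without 5-FU, against -0.39, -0.29 and -0.35 given it. Without KO BMX-001 replicate 1, the adjusted p was 0.00355 for Pir, 0.0226 for Srxn1, 0.0399 for Nqo1 and 0.0735 for Cat.

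Like Chac2, Mafg and Btrc, the erythroid and interferon genes did not show values of similar size without 5-FU. Tfrc was at -0.05, Epb42 at -0.02 and Xpo7 at 0.12 without 5-FU, and the median of the 34 erythroid genes was 0.02 there against -0.21 given 5-FU. Irf9 was at 0.03 and Rsad2 at 0.14, and the median of the 32 interferon-stimulated genes was -0.09 against -0.32. Of the 128 genes called lower given 5-FU, 71 were negative without it, with a median of -0.02 against -0.38, and of the 31 called higher 29 were positive, with a median of 0.67 against 1.03. These genes were selected on the libraries given 5-FU, which by itself favours larger values there. The test of the difference, which compares the genotype contrast with and without 5-FU over all 16 libraries, called 0 of 19152 genes with edgeR. It had 1300 at an unadjusted p under 0.05, DESeq2 called 39, and edgeR called 3645 without KO BMX-001 replicate 2 and 1 without WT PBS replicate 2. Of the 159 genes, 92 had an unadjusted p under 0.05 in this test, whose libraries include those that selected them.

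**Figure D5:**
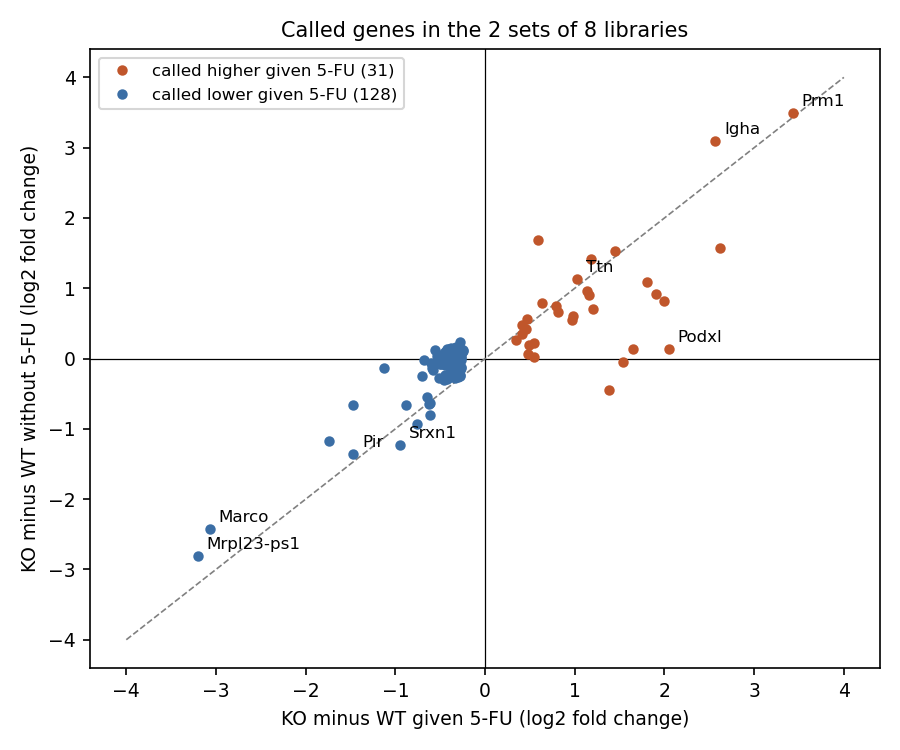
KO minus WT log2 fold change in the 8 libraries without 5-FU (vertical axis) against that in the 8 libraries given 5-FU (horizontal axis) for the 159 genes called given 5-FU, Nfe2l2 left out; the dashed line marks equal values. Pir, Srxn1, Marco, Igha and Prm1 lie near the line, while most of the 128 genes called lower lie close to 0 on the vertical axis.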

How the data were processed

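RNA of mouse bone marrow was sequenced in 16 libraries, and the table the authors deposited holds whole-number counts for 57132 Ensembl gene IDs, with no normalisation. The submitters' processing notes name the build GRCm39 and the tools featureCounts, Salmon 1.4.0, DESeq2 1.38.3, FastQC 0.12.1, Trim Galore 0.6.4 and R 4.3.0. Aligner, annotation release and strand setting were not given in these sources. Symbols came from a GRCm38 annotation (51880 IDs matched; the rest held 2.69% of counts and 701 tested genes), so no gene coordinates in the files' build are given.

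The 8 libraries given 5-FU were fitted with edgeR 4.0.16 in R 4.3.3 (filterByExpr, TMM factors, robust quasi-likelihood test, genotype plus treatment, 5 residual degrees of freedom), limma 3.58.1 and, as an alternative, DESeq2 1.42.0. Calls required an adjusted p (Benjamini-Hochberg, over every gene tested) under 0.05. The SE is the log2 fold change divided by the root of the F statistic. The 2 libraries of a group differed beyond sampling noise in all 4 groups (chi-square per degree of freedom 8.90 to 31.5), and with 2 libraries a group only differences that are large against this spread can pass. On simulated counts of 17243 genes for this comparison, 64 of 100 genes changed 1.5-fold and 83 of 100 changed 2-fold were recovered. There were 14 false calls beside 147 genes recovered with the right sign. Each gene was simulated independently of the others. Shifts shared by many genes of 1 library, as in KO 5-FU replicate 1, were therefore absent, and recovery and false calls under such shifts were not measured. The changed genes were drawn from those with a mean of at least 1 CPM, so recovery of rarer transcripts was not measured.

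The members and the 30 gene lists were chosen with earlier results of these data known, so the lists are described by counts and medians and were not tested. Named genes were Nfe2l2 and 10 NRF2 targets, the 15 highest and 15 lowest called genes with a mean of at least 1 log2 CPM and no overlap (13 and 115 genes met this), up to 4 called members of each list or its 2 highest-expressed ones, called neighbours of Nfe2l2 and, in other comparisons, the 3 genes of smallest p; further list members are given as examples with their values. Alternatives were another scaling (DESeq2's size factors), DESeq2, other low-count filters, a replicate block, no treatment term, all 16 libraries in 1 fit, no immunoglobulin and haemoglobin genes, and each library left out. Values of a few list members are not reported here.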

Additional observations from a re-analysis of the deposited data

Results flagged for a closer look

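For Gm16867, the test of whether the genotype difference differed by BMX-001 in marrow given 5-FU gave 9.12 on the log2 scale (SE 0.38, adjusted p = 5.89e-07, edgeR). This was the 1 gene called of 17474. It was at 23.3, 19.8, 24.3 and 23.8 CPM in the WT libraries and 0, 0.0279, 11.0 and 11.1 CPM in the KO libraries, so KO 5-FU had nearly none and KO BMX-001 and 5-FU close to 11 CPM in both libraries. In raw counts the WT libraries of the whole study held 771 to 1016, and the KO libraries held 0 and 1 with 5-FU, 359 and 399 with BMX-001 and 5-FU, 0 and 462 with PBS, and 0 and 1001 with BMX-001. With PBS and with BMX-001, the KO duplicates of a treatment thus differed from each other. With 2 libraries a group, a difference by BMX-001 and a difference between single KO libraries therefore cannot be told apart for this gene. Since a count near 0 makes the fitted difference depend on the prior count, 9.12 is no measure of its size.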

How the results depend on the processing

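For KO against WT given 5-FU, 160 genes were called. The count was 540 with DESeq2, 778 without the low-count filter, 19 with all 16 libraries in 1 fit, and 24 to 341 with 1 library left out; it was 160 with the replicate block, 165 with DESeq2's size factors, 137 above a mean of 1 CPM, 200 without the treatment term, 145 without immunoglobulin and haemoglobin genes, and 219 in the 16-library fit without KO BMX-001 replicate 1, a setting chosen after seeing the data. With 5-FU alone, 33 genes were called, 409 with DESeq2, 617 without the filter, 281 with the replicate block and 5 to 774 with 1 library left out. With BMX-001 and 5-FU, 24 were called, 281 with DESeq2, 486 without the filter, 15 above a mean of 1 CPM, 150 with the replicate block and 6 to 225 with 1 library left out. The difference by BMX-001 had 1 call, 35 with DESeq2, 223 without the filter, 20 with the replicate block and 1 to 255 with 1 library left out. Without 5-FU there was 1 call, 42 with DESeq2, 5 without the filter, 0 with the replicate block and 0 to 12 with 1 library left out. The difference by 5-FU had 0 calls, 39 with DESeq2, 202 without the filter and 0 to 3645 with 1 library left out. The causes were not tested. The replicate numbers were not shown to pair libraries: the correlation of same-numbered deviations was -0.144 for PBS, 0.059 for BMX-001, 0.013 for 5-FU and 0.160 for both drugs. Of 92 named genes compared, 16 changed sign in at least 1 alternative. None of the 16 was called, and with 1 library left out their log2 fold changes were Calr -0.050 to 0.098, Canx -0.070 to 0.015, Cxcl12 -0.0065 to 0.34, Ddx3y -0.082 to 0.065, ENSMUSG00000121270.1 -0.13 to 0.33, Eif2s3y -0.058 to 0.049, Fosl2 -0.14 to 0.036, Hmox1 -0.032 to 0.10, Ighm -0.37 to 0.76, Ly6c2 -0.047 to 0.053, Nfkb1 -0.060 to 0.0044, Plek -0.11 to 0.032, Retnlg -0.020 to 0.23, Rrm1 -0.10 to 0.021, Taldo1 -0.080 to 0.0089, Thbs1 -0.16 to 0.15 (Ly6c2 also 0.0021 without immunoglobulin and haemoglobin genes). Of the 48 called named genes, 41 lost the call in at least 1 alternative, 35 of them with 1 library left out. In all, 214 gene and setting pairs lost the call, 152 with 1 library left out, 37 in the 16-library fit and 13 in that fit without KO BMX-001 replicate 1, and 20 gained it, 10 of these without the low-count filter. Depth limits rare transcripts such as Mrpl23-ps1, below 1 CPM in every WT library.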

Other observations

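Genes encoding chaperones and their cofactors, chosen after their values were seen and therefore described only, were uneven. Hspa8 fell, as did its co-chaperones Dnajb4 (-0.45 ± 0.06, adjusted p = 0.00763, edgeR) and Dnaja4 (-0.45 ± 0.07, adjusted p = 0.00877), each without overlap between the genotypes. Dnaja1 was at -0.45 (adjusted p = 0.0575) and Chordc1 at -0.34 (adjusted p = 0.0875), and neither was called. The heat shock genes Hspa4 (-0.03), Hsp90aa1 (-0.01), Hsp90ab1 (0.01) and Hspd1 (0.07) were not called and lay near 0. Without 5-FU, Dnajb4 was at -0.09, Dnaja4 at 0.03 and Hspa8 at -0.65, none called.

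Slfn14, a ribosome-bound nuclease of red cell and platelet precursors, and Fhdc1, a formin-domain gene, were in none of the lists and were called in every fit that left out 1 library. Slfn14 was at 211, 194, 205 and 231 CPM in WT and 142, 149, 137 and 153 CPM in KO (-0.53 ± 0.06, adjusted p = 0.00313). Fhdc1 was at 279, 246, 249.7 and 264 CPM in WT and 190.1, 185, 172 and 194 CPM in KO (-0.49 ± 0.06, adjusted p = 0.0048). Both groups were narrow and separate, and without 5-FU the values were 0.04 and -0.08.

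Prm1, protamine 1 of sperm chromatin, was higher in KO marrow, at 0.146, 0.205, 0.129 and 0 CPM in WT and 1.01, 1.51, 1.63 and 1.17 CPM in KO (3.43 ± 0.45, adjusted p = 0.0048), a rare transcript in both. Without 5-FU its value was 3.50 ± 0.37 (adjusted p = 0.0537). Aldh1a2, a retinoic acid synthesis enzyme, was at 0.409, 0.694, 0.799 and 1.01 CPM in WT and 3.76, 3.71, 1.72 and 2.72 CPM in KO (2.00 ± 0.31, adjusted p = 0.0131), and at 0.82 without 5-FU, where it was not called.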
